A study of Zygosaccharomyces parabailii with 12 samples.

Results

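The genes described here are those whose transcripts were higher in lactic acid than in control at 18 h and lower in lactic acid than in control at 42 h. They were chosen from the group means of the deposited normalized values. The log2 ratio of lactic acid to control was taken at each time after adding 1 CPM (counts scaled to the library size, the unit of those values) to both means. Genes with a positive ratio at 18 h and a negative ratio at 42 h, 2007 of 9683, were ranked by the smaller of both absolute ratios, and the first 100 were kept. Since both ratios chose the genes, their values in those comparisons are given as a description. The member ranked 100, I05080_A, had ratios of 0.68 and -0.63, and the gene ranked 101, A05940_B (MRP10), had 0.63 and -0.73, so the limit cuts through a continuous ranking.

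The organism is *Zygosaccharomyces parabailii*, strain ATCC60483, an interspecies hybrid yeast in which most genes exist as a pair of homeologs, labelled A and B for the parent they came from. In some pairs both copies carry the label of the same parent, and genes labelled N could be assigned to neither. Batch cultures in Verduyn medium of pH 3 either contained 40 g/liter lactic acid or, as control, lacked it. Samples were drawn during exponential growth, at 18 h, and once the diauxic shift had passed, at 42 h. There were 3 libraries for each of 4 groups: lactic acid and control at 18 h, and lactic acid and control at 42 h. The replicates were samples of the fermentation, so p-values measure only the spread between these samples, which may be technical.

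Total counts were 8979873 to 17565769 in 11 libraries. The library of control replicate 2 at 18 h held 4606 counts and was not used by the authors or by the rule, so that n is 2 for control at 18 h and 3 elsewhere. The paper reports far more reads than counts for the library it left out, so only a very small part of its reads was counted. Why was not tested. CPM values are shares of a library, and in such bulk samples fewer cells that express a gene and less RNA per cell cannot be told apart. With library totals in place of TMM scaling (edgeR's trimmed mean scaling), the fold changes of all genes had log2 medians of 0.28 (18 h) and -0.39 (42 h), in place of 0.07 and -0.06, and the members' medians stayed on the same side of those values (0.99 and -1.30, against 0.77 and -0.98 with TMM).

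By *Saccharomyces cerevisiae* gene name, 37 of the 100 genes encode proteins of the cytosolic ribosome, 22 of the large and 15 of the small subunit. Another 2 belong to a family of 6 genes similar to FDH1, which encodes formate dehydrogenase, 24 carry other names and 37 have no name in the annotation used here. Yeast ribosomal protein genes are among the most strongly transcribed genes of a growing cell. They are regulated together with growth rate through the TOR and protein kinase A pathways, which fall in activity when glucose runs out and respiration of ethanol begins. Formate dehydrogenase oxidizes formate to carbon dioxide and passes the electrons to NAD.

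**Figure D1:**
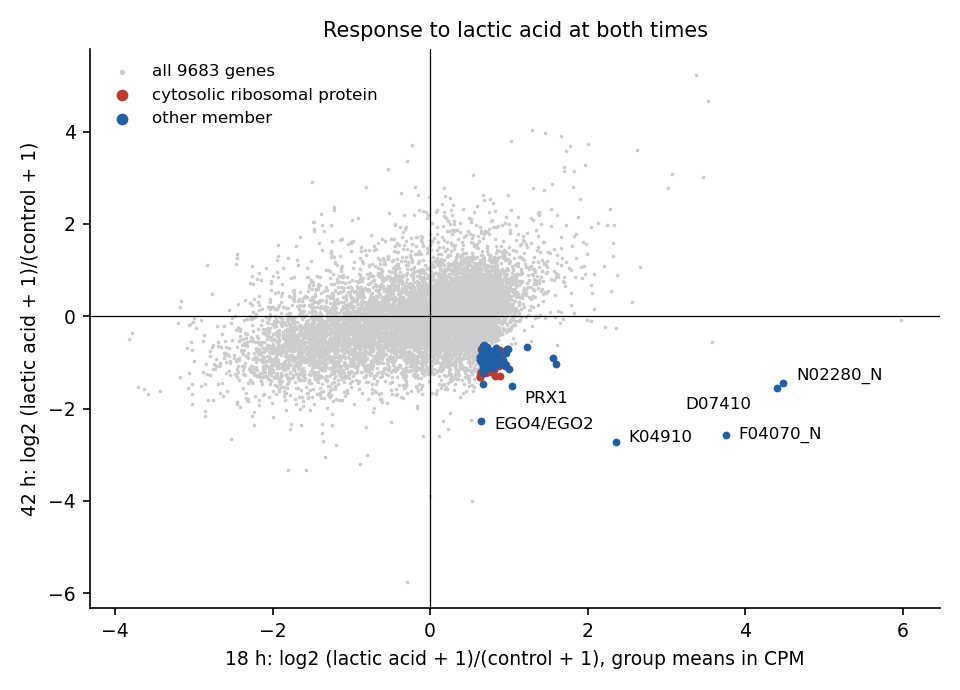
The log2 ratio of lactic acid to control at 18 h (horizontal axis) and at 42 h (vertical axis) for all 9683 genes (grey), with the 37 ribosomal protein members in red and the 63 other members in blue. Most members sit close together just past the limit of the rule, and F04070_N, N02280_N, D07410 and K04910 stand far to the right of them.

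Per gene, the edgeR quasi-likelihood test called 98 of the 100 members higher in lactic acid at 18 h (35.5% of all genes tested were) and 99 lower at 42 h (33.2% of all). Both calls held for 97 members (6.35% of all). The members not called were K04910 and EGO4/EGO2 at 18 h and D07410 at 42 h. A call is an adjusted p below 0.05 over all genes. These counts follow from the rule. The changes were mostly moderate: 9 members reached a log2 fold change of 1 at 18 h (4.25% of all genes) and 47 one of -1 or less at 42 h (9.9%), and 5 did both (0.062%). In all 100 members every lactic acid library at 18 h lay above both control libraries (42.7% of all genes), and in 98 every lactic acid library at 42 h lay below every control library (35.2%), and 98 showed both separations (9.3%). The exceptions at 42 h were D07410 and K04910.

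F04070_N, the gene ranked first, is 1 of the FDH-like genes (chromosome 6, 839100 to 840230, assembly ASM198439v2). It had 32.7, 36.2 and 41.6 CPM in lactic acid at 18 h, against 1.74 and 1.89 CPM in control. The 42 h values were 6.21, 5.90 and 7.06 CPM in lactic acid, against 48.6, 45.8 and 33.8 CPM in control. The groups were far apart at both times, and the gene was as high in lactic acid at 18 h as it was in control at 42 h. Its log2 fold change was 4.33 ± 0.22 at 18 h and -2.74 ± 0.163 at 42 h (± an approximate SE from edgeR, the absolute value divided by the square root of F).

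N02280_N, the other FDH-like member (chromosome 14, 450924 to 452054), had 95.04, 97.2 and 103 CPM in lactic acid at 18 h, against 3.06 and 3.84 CPM in control. By 42 h it had 111, 114 and 46.1 CPM in lactic acid, against 284, 282 and 182 CPM in control. Replicate 3 was the lowest library of both groups at 42 h, and the groups still did not overlap. The log2 fold changes were 4.82 ± 0.418 and -1.46 ± 0.283. Unlike F04070_N, this gene had about the same level in lactic acid at both times (42 h over 18 h in lactic acid: log2 -0.12 ± 0.279, adjusted p = 0.686 by edgeR), while control rose by a log2 of 6.16 ± 0.439 (adjusted p = 1.97e-07).

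The other 4 genes of the family were all higher in lactic acid at 18 h but did not share the fall at 42 h to the same degree. I01900_B had a mean of 279 ± 52.6 CPM in lactic acid at 18 h (SD, n = 3) and 3.44 ± 0.656 CPM in control (n = 2), a log2 fold change of 6.32 ± 0.249 (edgeR adjusted p = 4.24e-08). At 42 h it had 94.9 ± 11.1 CPM in lactic acid and 100.0 ± 13.4 CPM in control (n = 3 each), with a log2 fold change of -0.07 ± 0.158 (adjusted p = 0.70). O01850_A was higher at 18 h (log2 3.67 ± 0.17) and lower at 42 h (-0.56 ± 0.127; adjusted p = 5.42e-08 and 0.00231 by edgeR). H05680_N, at most 5.49 CPM in any library, was higher at 18 h (3.60 ± 0.454, adjusted p = 3.69e-05) with -0.18 ± 0.357 at 42 h (adjusted p = 0.676). P02220_N, also low, was higher at both times (2.76 ± 0.314 and 0.74 ± 0.277, adjusted p = 1.76e-05 and 0.0345). The copies are similar in sequence, and reads that fit more than 1 of them were not counted.

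D07410 and K04910, ranked 3 and 2, have no name here, and their place among the members depends on single libraries. D07410, the last annotated gene at its chromosome end (chromosome 4, 1501832 to 1502800), had 3341, 2862 and 2179 CPM in lactic acid at 18 h, against 91.8 and 171 CPM in control. The 42 h values were 1572, 478 and 656 CPM in lactic acid, against 7326, 217 and 441 CPM in control. K04910 (chromosome 11, 939485 to 940165) had 13.9, 15.4 and 11.4 CPM in lactic acid at 18 h, against 1.74 and 1.95 CPM in control. Its values at 42 h were 16.2, 3.75 and 8.46 CPM in lactic acid, against 181, 8.82 and 14.8 CPM in control. In control replicate 2 at 18 h, the library of few counts, D07410 took 34 of 4596 counts, or 0.740% (Wilson 95% interval 0.530 to 1.03%, counting error only), against 0.00827 and 0.0165% in the other controls and 0.241 to 0.356% in lactic acid. This library therefore lay above all lactic acid libraries for D07410, opposite to its difference at 18 h, although only a very small part of its reads was counted. For both genes replicate 1 was the highest library of each group at 42 h, and the groups overlapped at that time. Without control replicate 1 at 42 h the log2 fold change of D07410 at 42 h was 1.46 ± 0.511, with the sign turned round (edgeR adjusted p = 0.0331), in place of -1.56 ± 0.983, and that of K04910 was -0.32 ± 0.436 in place of -2.85 ± 0.929.

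**Figure D2:**
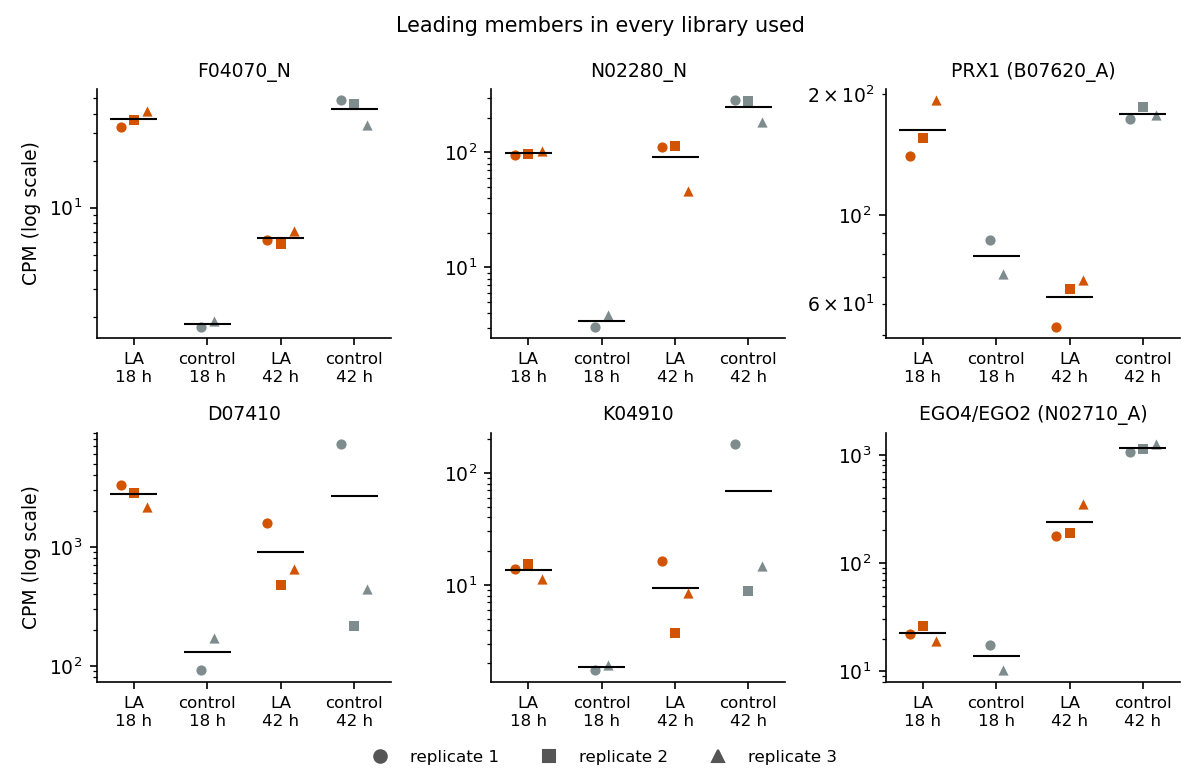
CPM (log axis) of 6 members in each library, lactic acid left of control at 18 h and at 42 h, with a line at each group mean and a symbol for each replicate number. F04070_N, N02280_N, PRX1 and EGO4/EGO2 show separate groups at 42 h, whereas the 42 h control mean of D07410 and K04910 rests on replicate 1.

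PRX1 (B07620_A, chromosome 2, 1454989 to 1455732), a mitochondrial peroxiredoxin that reduces peroxides with thiols, was the highest ranked named gene after these. It had 140.3, 156 and 193 CPM in lactic acid at 18 h, against 86.7 and 71.3 CPM in control. At 42 h lactic acid had 52.6, 65.3 and 69.0 CPM, against 173, 186 and 177 CPM in control. As for F04070_N, the high levels were those of lactic acid at 18 h and control at 42 h. Its log2 fold changes were 1.05 ± 0.164 and -1.52 ± 0.145. Of 39 tested genes of oxidative stress and thiol redox, lactic acid raised 43.6% and lowered 46.2% at 18 h (35.5% and 35.2% of all genes) and raised 35.9% and lowered 23.1% at 42 h (28.2% and 33.2%), and PRX1 was the only one among the members. Gene lists hold only named genes, and names came in part from the study's lists of differentially expressed genes. Such shares can therefore favour genes that changed. K00690_N (YKL069W, a free methionine-R-sulfoxide reductase, outside that list) had a mean of 23.7 ± 1.35 CPM in lactic acid at 18 h, against 13.2 ± 2.17 CPM in control. Its 42 h means were 5.50 ± 1.04 CPM with lactic acid, against 12.8 ± 0.563 CPM without it.

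The ribosomal protein members were alike, in part because the rule sets the order within each time and the smallest fold changes. In every one of the 37 genes the order of the group means was lactic acid at 18 h, control at 18 h, control at 42 h and lactic acid at 42 h, from high to low. At 18 h their means ran between 789 and 2291 CPM in lactic acid and between 466 and 1438 CPM in control. At 42 h they ran between 85.7 and 291 CPM in lactic acid and between 155 and 543 CPM in control. The log2 fold changes were 0.63 to 0.96 at 18 h, with a median of 0.71 (1.63-fold), and -1.33 to -0.71 at 42 h, with a median of -1.08 (2.12-fold lower). Over all 114 tested genes for cytosolic ribosomal proteins, members or not, the 18 h values ran from -3.03 to 0.96.

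RPL24A/RPL24B, for protein L24 of the large subunit, led the group. Its copy G04530_A had 1508, 1478 and 1337 CPM in lactic acid at 18 h, against 830.3 and 647 CPM in control. By 42 h it had 100.0, 127 and 154 CPM in lactic acid, against 247, 264 and 281 CPM in control. Among the small subunit genes RPS11B/RPS11A led, with 1685, 1778 and 1440.2 CPM for J02130_A in lactic acid at 18 h, against 1029.9 and 706 CPM in control. The same gene had 122, 129.8 and 159 CPM in lactic acid at 42 h, against 265, 271 and 283 CPM in control. Neither gene showed any overlap of groups at either time.

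RPS13 on chromosome 4 (D03800_A) had 1121, 1098 and 1072 CPM in lactic acid at 18 h, against 701 and 541 CPM in control. For the same copy lactic acid at 42 h had 77.6, 85.4 and 122 CPM, against 236, 234 and 238 CPM in control. RPL12B/RPL12A, for a protein of the stalk base of the large subunit, averaged 2159 ± 109 CPM in lactic acid at 18 h, against 1259 ± 269 CPM in control for D05590_A. The highest level of any named member at 18 h was below that of N03760_A, a gene of 765 bases without a name here, which averaged 3113 ± 147 CPM in lactic acid at 18 h, against 1909 ± 317 CPM in control. The 42 h means were 277 ± 66.6 CPM with lactic acid, against 604 ± 68.3 CPM without it.

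Together the 37 genes took 6.31% ± 0.089 of the counts of a library in lactic acid at 18 h (SD, n = 3) and 3.24% ± 0.443 in control (n = 2). At 42 h they took 0.499% ± 0.119 in lactic acid and 1.30% ± 0.110 in control (n = 3 each). The library of few counts, control replicate 2 at 18 h, had no part in choosing the members. Only a very small part of its reads was counted, and its shares may differ from those of its RNA by more than counting error. In it these genes had 144 of the 4596 counts that remain without pseudogenes and the plasmid gene, a share of 3.13% (Wilson 95% interval 2.67 to 3.68%, counting error only). This lay between the 3.55% and 2.93% of the other control libraries and below the 6.21 to 6.37% of the lactic acid libraries. The 63 other members had 2.96% of its counts (2.51 to 3.49%), against 1.86 and 1.61% in the other controls and 3.73 to 3.85% in lactic acid. Of its 136 counts in these genes, 34 were of D07410, and the 62 others had 2.22% (1.83 to 2.69%), against 1.85 and 1.60% in the other controls and 3.42 to 3.51% in lactic acid.

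**Figure D3:**
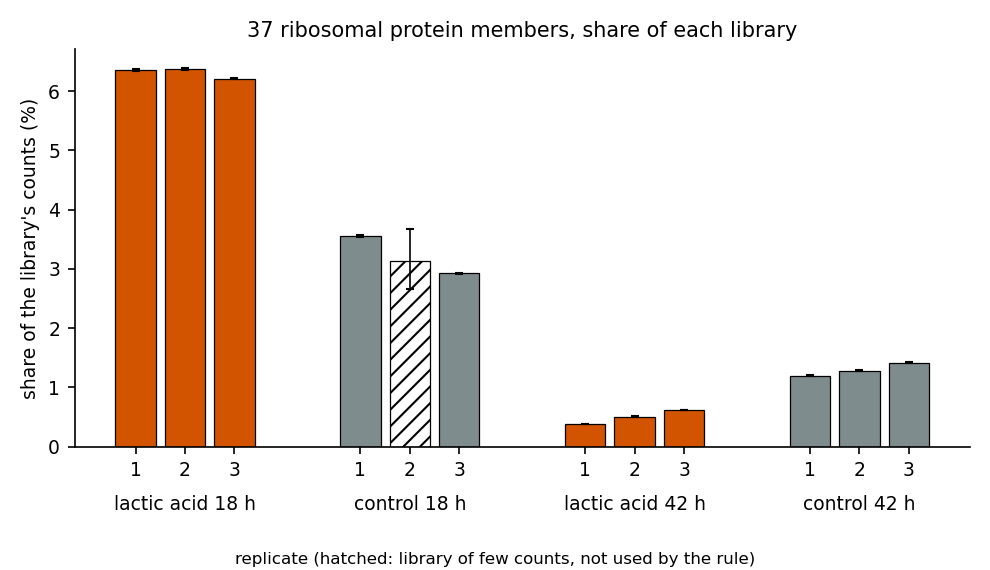
Share of all counts of a library (percent, with Wilson 95% intervals for counting error) taken by the 37 ribosomal protein members, for the libraries of lactic acid and control at 18 h and at 42 h. The hatched bar is control replicate 2 at 18 h, with 4596 counts from a very small part of its reads, which stands at 3.13% among the control libraries.

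The control libraries at 18 h differed from each other in these genes. All 37 were higher in replicate 1 than in replicate 3, by a median ratio of 1.29, while 49.5% of all genes were. Without control replicate 3 at 18 h, 16 of the 37 and 53 of the 63 other members were called higher in lactic acid at 18 h (25.4% of all genes), and without control replicate 1 all 37 and 60 of the 63 were (30.4%). In lactic acid at 42 h replicate 3 was the highest library for all 37 genes, with a median ratio of 1.52 to replicate 1. The median coefficient of variation of the 37 genes was 5.03% in lactic acid and 18.1% in control at 18 h, and 21.2% in lactic acid and 8.80% in control at 42 h.

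The list of cytosolic ribosomal proteins holds 114 tested genes, and the 77 outside the members only partly shared the pattern. At 42 h, 76 of the 77 were lower in lactic acid than in control by edgeR (33.2% of all genes), the exception being B08150_A (RPS23A/RPS23B, -0.46 ± 0.207, adjusted p = 0.0739). At 18 h 37 were higher (48.1%, against 35.5% of all genes) and 19 lower (24.7%, against 35.2%). Choosing the members first removes the genes that were highest at 18 h, so these counts are not a sample of the list. The list itself holds only named genes, and names came in part from the study's lists of differentially expressed genes. It can therefore favour genes that changed in these data, and its shares are no fair comparison with those of all genes. RPL5, for the large subunit protein that carries 5S rRNA, was the lowest: H04400_B averaged 175 CPM in lactic acid at 18 h, against 1426 CPM in control (log2 fold change -3.03 ± 0.152, edgeR adjusted p = 5.94e-08), and its homeolog B05590_A changed by -2.82 ± 0.146. Both homeologs of RPL17B/RPL17A were lower (-2.32 ± 0.15 for G04940_B and -2.22 ± 0.149 for B01680_A), as were both of RPP2A, for an acidic stalk protein (-2.66 ± 0.165 for F00640_A and -2.04 ± 0.156 for D01880_B). All 114 genes of the list had a negative log2 fold change at 42 h, the smallest being that of B08150_A, whereas at 18 h genes of both signs passed the test.

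Other parts of the translation machinery gave 3 members, close to the 1.03% of all genes that are members. Of all genes, lactic acid raised 35.5% and lowered 35.2% at 18 h, and raised 28.2% and lowered 33.2% at 42 h. These lists also hold only named genes, so their shares can favour genes that changed. Of 148 tested genes of ribosome assembly and rRNA processing, lactic acid raised 15.5% and lowered 39.9% at 18 h and raised 4.73% and lowered 68.9% at 42 h, and 1 (0.676%) was a member. That gene, ENP1 (J03820_A), needed for maturation of the small subunit, had 177, 175 and 210.3 CPM in lactic acid at 18 h, against 113 and 119 CPM in control. At 42 h it had 21.6, 24.1 and 35.9 CPM in lactic acid, against 60.1, 60.7 and 64.6 CPM in control. Of 73 tested genes of the mitochondrial ribosome and its translation, lactic acid raised 64.4% and lowered 16.4% at 18 h and raised 8.22% and lowered 52.1% at 42 h, and both copies of MRPS28, for a protein of the small mitochondrial subunit, were members (2.74%). C07440_A averaged 147 ± 22.5 CPM in lactic acid at 18 h, against 87.9 ± 5.85 CPM in control. At 42 h the means were 20.9 ± 4.21 CPM with lactic acid, against 36.8 ± 2.71 CPM without it.

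The other named members have varied roles. NCE101 (B04990_N), named for a part in nonclassical protein export, had 20.4, 21.0 and 17.2 CPM in lactic acid at 18 h, against 6.03 and 5.56 CPM in control. The 42 h values were 2.76, 2.25 and 2.89 CPM in lactic acid, against 5.94, 7.30 and 5.94 CPM in control. With 156 bases it is the shortest member. APT2/APT1 (K03530_B), for adenine phosphoribosyltransferase of the purine salvage pathway, averaged 159 ± 5.14 CPM in lactic acid at 18 h, against 79.3 ± 21.7 CPM in control. It averaged, at 42 h, 23.3 ± 3.60 CPM with lactic acid, against 52.7 ± 1.70 CPM without it. MLC1 (J03660_A), a light chain of the type V myosin Myo2, averaged 70.9 ± 6.27 CPM in lactic acid at 18 h, against 36.4 ± 1.61 CPM in control. Its 42 h means were 10.1 ± 0.839 CPM with lactic acid, against 21.9 ± 2.15 CPM without it.

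SHR3 (G05600_B), which packages amino acid permeases in the endoplasmic reticulum, averaged 212 ± 2.37 CPM in lactic acid at 18 h, against 121 ± 7.25 CPM in control. For 42 h the means were 45.3 ± 7.01 CPM with lactic acid, against 100.4 ± 3.52 CPM without it. H03280_B, predicted to hold an FAD-binding domain, had a larger difference at 18 h, with 33.6 ± 1.34 CPM in lactic acid and 10.7 ± 2.89 CPM in control. The rest includes genes for a Golgi matrix protein (RUD3), tropomyosin (TPM2/TPM1), a subunit of oligosaccharyltransferase (OST3), a proteasome assembly chaperone (POC4) and an RNA processing factor (DRN1), with log2 fold changes of 0.67 to 0.81 at 18 h and -1.15 to -0.77 at 42 h.

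In 89 members the highest group mean was that of lactic acid at 18 h (33.7% of all genes), and in 83 the full order was that of the ribosomal protein genes (14.7% of all genes had this order). Under the rule only lactic acid at 18 h or control at 42 h can be highest. Of all genes, 20.7% met the signs that the rule asks for, and the 14.7% with this order are among them. In the other 11 members control at 42 h was the highest group (18.7%). EGO4/EGO2 (N02710_A, 255 bases) was the most extreme of these: it had 21.9, 25.9 and 19.0 CPM in lactic acid at 18 h, against 17.4 and 10.2 CPM in control. By 42 h it had 177, 188 and 350.0 CPM in lactic acid, against 1065, 1135 and 1262 CPM in control. At 18 h its log2 fold change was 0.70 ± 0.312 and it was not called (edgeR adjusted p = 0.0621). In *S. cerevisiae* Ego2 is a part of the EGO complex, which holds TORC1 at the vacuole. CLD1 (H01660_B), the mitochondrial phospholipase that trims cardiolipin, averaged 9.52 ± 0.838 CPM in lactic acid at 18 h, against 4.28 ± 0.798 CPM in control. Its 42 h means were 31.6 ± 3.74 CPM with lactic acid, against 51.9 ± 3.26 CPM without it. D04770_A, related to the nitrilase NIT1, averaged 11.5 ± 1.03 CPM in lactic acid at 18 h, against 6.87 ± 0.484 CPM in control. Its 42 h means were 7.63 ± 1.07 CPM with lactic acid, against 22.9 ± 1.63 CPM without it.

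**Figure D4:**
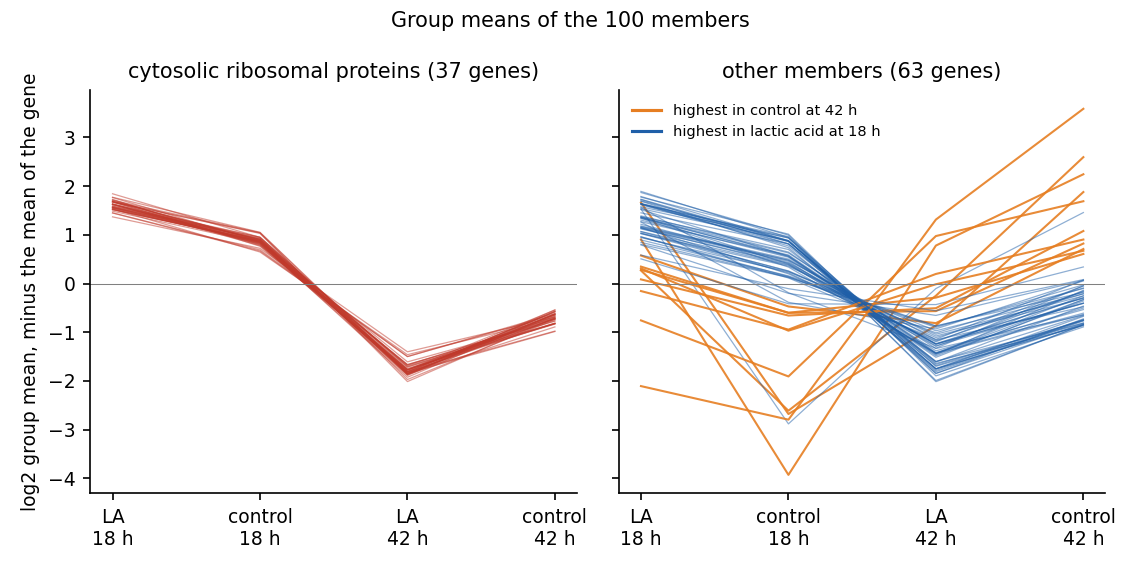
Log2 group means of each member, less the mean of the gene over the 4 groups, for the 37 ribosomal protein members (left) and the 63 others (right). The ribosomal protein genes share the same order of means, which the rule sets in part, and 11 of the other members (orange) were highest in control at 42 h.

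Of the 37 members without a name, 19 besides D07410 were picked for a mean of 300 CPM or more in lactic acid at 18 h. Their means were 330.2 to 3113 CPM in lactic acid at 18 h and 199.6 to 1909 CPM in control, and 51.1 to 277 CPM in lactic acid at 42 h and 82.4 to 604 CPM in control. The ribosomal protein members ran between 789 and 2291 CPM in lactic acid at 18 h. All 19 had the same order of group means as those members, an order that the rule sets in part. The cut on lactic acid at 18 h favours that order too and sets the lower end of their level. Their likeness to the ribosomal protein members in level and order therefore comes in part from how they were picked. They are 180.0 to 1295 bases long. No function is assigned to them here.

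The difference between the times, averaged over both conditions, was not used by the rule, although it comes from the same group means. It was tested by edgeR. At 42 h 87 of the 100 members were lower than at 18 h (43.7% of all genes) and 9 were higher (40.7%). A fall with time is not particular to the members. Of all genes, 20.7% met the signs of the rule, and 14.7% of all met them with both 18 h means above both 42 h means. All 37 ribosomal protein members were lower, by log2 fold changes of -2.82 to -2.09 with a median of -2.48 (5.56-fold; adjusted p between 6.18e-10 and 2.23e-08). The 77 other ribosomal protein genes of the list were all lower as well, with a median of -2.29. In control alone 78 members were lower at 42 h (39.1% of all genes) and 14 higher (31.2%), and in lactic acid alone 94 were lower (41.9%) and 3 higher (41.4%). Within control the median of the 37 was -1.55 (2.93-fold lower at 42 h) and within lactic acid -3.39 (10.5-fold lower). Both of these share groups with the rule, which makes the fall steeper in lactic acid.

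The gene that rose most with time was EGO4/EGO2 (log2 4.91 ± 0.246, adjusted p = 2.46e-09 by edgeR). N02280_N (3.02 ± 0.25, adjusted p = 2.07e-07), CLD1 (2.66 ± 0.103, adjusted p = 4.02e-10) and F04070_N (1.01 ± 0.139, adjusted p = 2.3e-05) rose too. PRX1 did not pass the test (-0.10 ± 0.107, adjusted p = 0.372), nor did D07410 (1.35 ± 0.749, adjusted p = 0.11). Among the named members outside the ribosome, YBR242W/YGL101W, a pair of genes for HD domain proteins, had the steepest falls, with -2.84 ± 0.096 for J03720_A and -2.86 ± 0.097 for A07420_B (adjusted p = 1.79e-10 for each).

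For 76 members a homeolog is recorded here. In 42 of them the homeolog is a member too, which makes 21 pairs, 15 of ribosomal protein genes and 6 others. Some of these pairs, such as those of RPL24A/RPL24B and RPS16B/RPS16A, hold copies that are both labelled A. The other 34 members have a homeolog outside the 100, whose values the rule did not use to choose the member, although both copies were read from the same libraries. By edgeR 29 of these 34 homeologs were higher in lactic acid at 18 h (35.5% of all genes), 25 were lower at 42 h (33.2%) and 22 were both (6.35%). None was lower at 18 h by that test, and C00780_A was the 1 that was higher at 42 h (28.2% of all). Their median log2 fold changes were 0.58 and -0.66. Without control replicate 3 at 18 h, 15 of the 34 were higher at 18 h (25.4% of all genes), and with the length trend described below removed, 16 were (37.8%).

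Some pairs differed. The PRX1 homeolog H02340_B was higher at 18 h by 1.31 ± 0.206 (edgeR adjusted p = 0.000179) but had -0.21 ± 0.176 at 42 h (adjusted p = 0.32). For H03280_B the partner B06710_A had 0.08 ± 0.162 at 18 h (adjusted p = 0.67) and was lower at 42 h (-1.74 ± 0.147, adjusted p = 3.02e-06). The CLD1 homeolog B08290_A passed at neither time (-0.21 ± 0.379 and -0.64 ± 0.27, adjusted p = 0.625 and 0.0578). The homeolog of K00690_N, C00780_A, was higher at both times (0.64 ± 0.111 and 0.25 ± 0.101, adjusted p = 0.000337 and 0.0472). EGO4/EGO2 has the homeolog F03640_N, which averaged 1748 CPM in lactic acid at 42 h and 2565 CPM in control (-0.55 ± 0.293, adjusted p = 0.12). The differences between the genes of a pair were not tested.

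The members were short and strongly expressed. Their median gene length was 637 bases (introns included), against 1230.0 bases for all genes, and 83 of them were under 1000 bases (38.2% of all genes). The 63 members outside the ribosome had a median of 696 bases. A mean of 200 CPM or more in the highest group was reached by 61 members (17.5% of all genes). These include all 37 ribosomal protein members and 20 of the 37 members without a name, so few of the other named members reached it. The length was no multiple of 3, as in most genes with an intron, in 27 members, 18 of them ribosomal protein genes (3.09% of all genes). The label was A for 54 members and B for 35 (46.4% and 42.7% of all genes). Members lie on 15 chromosomes. Neighbouring members occur as RPL13A/RPL13B beside RPS16B/RPS16A and as RPS13 beside AIM7, each on both homeologous chromosomes.

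Gene length moved with the response at 18 h among genes outside the members. Their median log2 fold change at 18 h was 0.54 under 500 bases, 0.46 from 500 to 750 bases, 0.10 from 1000 to 1500 bases and -0.93 from 3000 bases up. The 35 members under 500 bases had a median of 0.76 and the 34 from 500 to 750 bases one of 0.81, and over all their length classes the members, which had to pass the limit of the rule, had medians of 0.70 to 0.81. At 42 h the other genes under 500 bases had a median of 0.07, against -1.01 for the members of that length. With a length trend removed from every library, an alternative chosen after the data were seen, 77 members were higher at 18 h (37.8% of all genes), 23 of 37 for ribosomal proteins, and 99 were lower at 42 h. The ribosomal protein members then had a median of 0.40 at 18 h and -1.11 at 42 h, against 0.16 and 0.02 for all genes. Of the 77 ribosomal protein genes outside the members, 0 were then called higher at 18 h by edgeR, the only tool run with this trend, 5 were at an unadjusted p under 0.05, and 23 were lower.

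**Figure D5:**
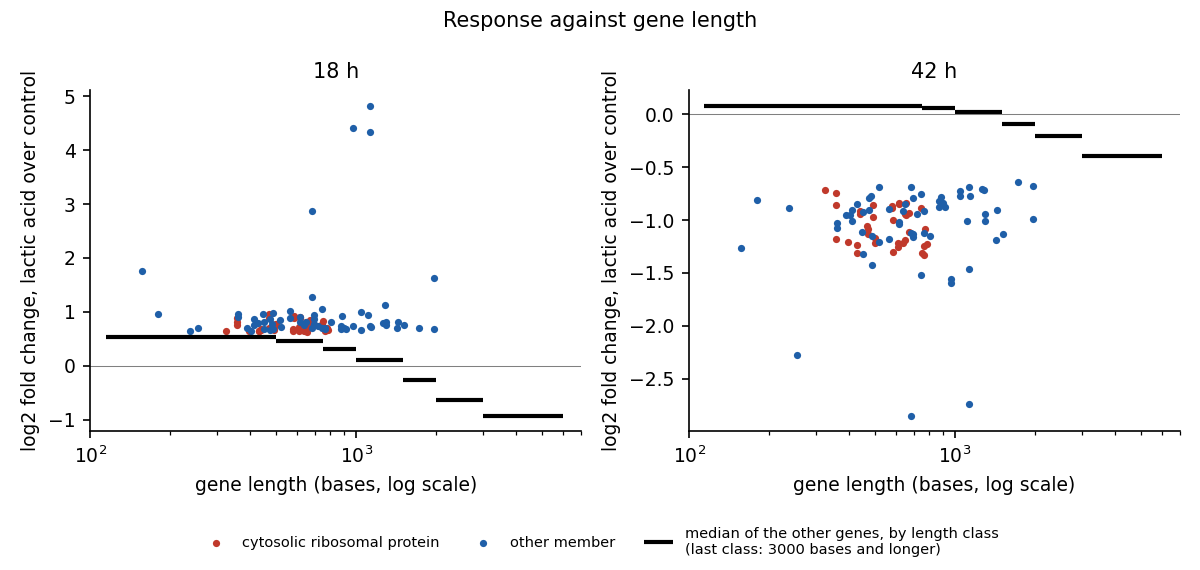
Log2 fold change of lactic acid over control against gene length (bases, log axis) at 18 h (left) and 42 h (right) for the ribosomal protein members (red) and the other members (blue). Black bars give the median of all other genes in each length class, which at 18 h lies at 0.54 for genes under 500 bases and falls to -0.93 for the longest, whereas at 42 h it lies within 0.40 of 0.

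Applied to values with the length trend removed, the rule kept 33 of the 100 genes among its first 100, of which 5 were ribosomal protein genes. All 100 still had a positive ratio at 18 h and a negative one at 42 h. The genes kept included both FDH-like members, PRX1, NCE101, APT2/APT1, both genes of the YBR242W/YGL101W pair, H03280_B, SHR3, CLD1, ENP1, and RPS11B/RPS11A, RPL13A/RPL13B, both copies of RPL15A/RPL15B and RPS13 of the ribosome. Whether transcript length in the libraries or the regulation of short genes sets the trend was not tested.

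PFK27, which encodes a kinase that makes the glycolytic activator fructose 2,6-bisphosphate, is a gene the study names and no member. The paper describes it as upregulated at 18 h and downregulated at 42 h, and its gene names can stand for either homeolog. L03420_B was higher in lactic acid at 18 h by a log2 of 0.66 ± 0.122 (edgeR adjusted p = 0.000546), with 182 ± 11.2 CPM in lactic acid and 115 ± 19.8 CPM in control, and had -0.23 ± 0.11 at 42 h (adjusted p = 0.0884). Its homeolog C06780_A had 0.17 ± 0.135 at 18 h (adjusted p = 0.272) and was lower at 42 h (-0.62 ± 0.123, adjusted p = 0.00104). The rise thus passed the test here in L03420_B only, and the fall in C06780_A only.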

How the data were processed

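RNA of lactic acid and control cultures was sequenced in 12 rRNA-depleted libraries. The authors mapped reads by Bowtie 1.1.2, allowing no mismatch, and obtained gene counts from HTSeq 0.6.0, in which reads with more than 1 place were dropped. Deposited counts are whole numbers per gene. The deposited normalized signal is CPM of the TMM-scaled library size, made by the authors with edgeR 3.18.1 for the 9683 genes that reached 1 CPM in 3 or more libraries of either condition, and was recomputed here (largest relative difference 5.0e-15).

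The members and the gene lists were chosen with earlier results of these data known. Members were taken from the signal with a pseudocount of 1. Tests used the deposited counts in R 4.3.3 with edgeR 4.0.16 (quasi-likelihood, two-sided, 1 model of 4 groups, TMM, Benjamini-Hochberg over 9683 genes), without control replicate 2 at 18 h and 14 entries for pseudogenes and a plasmid gene (0.0575 to 0.344% of counts). Alternatives were limma 3.58.1 (voom), DESeq2 1.42.0, RLE scaling, library totals, no filter, a replicate block, each library left out and, added later, removal of a length trend (spline of 5 degrees of freedom on log gene length). A length trend estimated without members and listed ribosomal protein genes was added too. The test was checked on simulated counts, with absolute log2 changes of 1 or 2 in lactic acid at 18 h only. It called a share of 0.98 of the changes of 1 and 1.0 of the changes of 2. Of 9483 unchanged genes it called 9. Changes below 1, as most members had at 18 h, were not simulated. Genes were named by rank (first 25), membership in a list, a homeolog among the members, a group mean of 200 CPM, or as genes the study names (the FDH-like genes and PFK27), the higher ranked first where space was short. The homeologs, the ribosomal protein genes lower at 18 h, and other examples outside this rule were picked after their values were seen. Names came from the part of the annotation at hand or, for 28 members, from the homeolog. That part included the study's lists of differentially expressed genes, so whether a gene has a name can depend on its change in these data. Genes without a name could enter no gene list. Sequences were not used here.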

Additional observations from a re-analysis of the deposited data

Results flagged for a closer look

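Among homeologs of members that are themselves outside the 100, the response to lactic acid was lower at 42 h than at 18 h in 33 of 34 genes by the interaction term of the edgeR model (24.9% of all genes). They drew attention because a difference between the times was tested in genes that the rule had not taken. The count was 30 to 34 over the 19 alternatives. It was 30 without control replicate 3 at 18 h and 30 with the length trend removed. The exception in the model with all 11 libraries was the CLD1 homeolog B08290_A (adjusted p = 0.458). What the homeologs and the members share was not tested.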

How the results depend on the processing

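The members lower at 42 h numbered 98 to 99 under every alternative, and the 87 lower at 42 h than at 18 h over both conditions numbered 87 under each. Members higher at 18 h numbered 77 to 100 over the settings that keep all libraries and 69 to 99 with 1 library left out, the lowest without control replicate 3 at 18 h. Of the homeologs outside the members, 16 were higher at 18 h with the length trend removed and 16 with the trend of the other genes removed, against 29, and 15 to 31 with 1 library left out; 24 to 28 were lower at 42 h with 1 library left out and 24 to 33 under the other settings, the highest with library totals. The rule kept 33 of the 100 genes with the length trend removed, 32 with the trend of the other genes removed, 89 to 96 under the other settings and 69 to 98 with 1 library left out. With 1 library left out, members higher at 42 h than at 18 h over both conditions numbered 7 to 10, those in control 74 to 80 lower and 12 to 14 higher, and those in lactic acid 92 to 95 lower and 2 to 3 higher. The fold change of D07410 at 42 h was -2.25 when lactic acid replicate 1 of 42 h was left out, and its sign turned round, to 1.46, when control replicate 1 of 42 h was. Of 4845 values of named genes under alternatives, 4741 kept their direction and side of the threshold, 86 no longer passed, 17 passed newly and 1 turned round. Same-numbered libraries of lactic acid and control had correlations of deviations of 0.176 and 0.289 at 18 h and 0.148, -0.116 and 0.149 at 42 h, and the labels tie equal numbers to no shared source. Since 1 of the 3 pairs at 42 h lay below 0.1 and 18 h has 2 pairs, the numbers were not taken to pair the samples, although 4 of the 5 lay above 0.1. With the replicate block 98 members were higher at 18 h, 99 were lower at 42 h and 87 lower with time. Where 1 of the 18 h controls was dropped, the lone library was assumed to vary like the other groups. With 2 control libraries at 18 h, the differences at that time are the least secure. The causes of these shifts were not tested.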
